A study of Mus musculus with 4 samples.

Results

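The 10 genes described here encode nuclear receptors of the liver, namely Hnf4a, Nr1i2, Nr1i3, Nr1h3, Nr5a2, Nr2f6, Nr3c1, Esr1, Thrb and Rora. They were chosen by name, and every probe set whose platform annotation gave exactly 1 gene symbol equal to one of these names was taken, a probe set being a group of short probes for one transcript on the array. This gave 33 of the 45101 probe sets, and 10 of the 18194 genes that had such a probe set. Expression was measured on 4 single-colour Affymetrix arrays, each holding pooled liver RNA of male C57BL/6J mice that were 8 to 12 weeks old when the diets began. The groups were a high-fat diet with clodronate liposomes, a low-fat diet with clodronate liposomes, a high-fat diet with PBS and a low-fat diet with PBS. Fat gave 45% of the energy of the high-fat diet and 10% of that of the low-fat diet, palm oil stood in place of lard in both, and the diets ran for 20 weeks. Clodronate liposomes, which kill the phagocytes that take them up, or phosphate-buffered saline (PBS) were injected into the peritoneal cavity in the last week. Each high-fat pool held 10 mice and each low-fat pool 8, so that each group was a single array, with no measure of how mice within it varied. The PBS groups received no empty liposomes, so the liposomes, the drug and the loss of phagocytes cannot be told apart.

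Nuclear receptors are transcription factors with a zinc-finger DNA-binding domain, and many of them are switched by a small fat-soluble ligand such as a hormone, a bile acid, an oxysterol or a drug. In hepatocytes HNF4A maintains the liver programme, PXR (Nr1i2) and CAR (Nr1i3) drive drug metabolism, LXRα (Nr1h3) responds to oxysterols, and LRH-1 (Nr5a2) acts in bile acid synthesis. GR (Nr3c1), the oestrogen receptor ERα (Esr1) and the thyroid hormone receptor TRβ (Thrb) relay circulating hormones, RORα (Rora) takes part in the clock and in lipid metabolism, and NR2F6 is an orphan receptor. PXR, CAR, LXRα and TRβ act as pairs with RXR, HNF4A, GR and ERα as pairs of themselves, and LRH-1 and RORα can bind DNA as single molecules. The mRNA level measured here is not the activity of a receptor, which also depends on ligand, partners and place in the cell.

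The promoters of 3 members are shown because the probe sets of these genes had the largest averaged diet differences (Nr1i3 and Nr5a2) or belong to the closest relative of CAR (Nr1i2), a choice made with their values known. Each window runs from 250 bases before to 50 bases after a transcription start, on the gene's strand and 5′ to 3′, from RefSeq on GRCm38.p6. The windows lie at chr1:171213720-171214019 on the plus strand for Nr1i3, at chr16:38294775-38295074 on the minus strand for Nr1i2, and at chr1:136960399-136960698 on the minus strand for Nr5a2. Capitals mark the E-box CACGTG in Nr1i3, the glucocorticoid receptor core AGAACA in Nr1i2, and the nuclear receptor core AGGTCA followed by AGAACA in Nr5a2. The Nr5a2 window shown was chosen because it holds both motifs. The other Nr5a2 window, at chr1:136953581-136953880, holds AGAACA on the reverse strand and no AGGTCA.
Nr1i3: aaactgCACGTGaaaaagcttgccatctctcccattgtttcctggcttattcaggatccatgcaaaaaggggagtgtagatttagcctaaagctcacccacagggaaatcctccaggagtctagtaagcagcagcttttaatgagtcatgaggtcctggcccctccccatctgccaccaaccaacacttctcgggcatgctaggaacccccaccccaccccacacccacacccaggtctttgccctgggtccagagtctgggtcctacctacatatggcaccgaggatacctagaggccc
Nr1i2: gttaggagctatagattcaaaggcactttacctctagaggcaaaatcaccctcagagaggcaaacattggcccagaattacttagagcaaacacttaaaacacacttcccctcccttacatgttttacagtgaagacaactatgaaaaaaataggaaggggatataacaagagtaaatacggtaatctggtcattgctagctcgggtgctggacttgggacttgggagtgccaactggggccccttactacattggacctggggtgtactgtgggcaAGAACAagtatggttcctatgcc
Nr5a2: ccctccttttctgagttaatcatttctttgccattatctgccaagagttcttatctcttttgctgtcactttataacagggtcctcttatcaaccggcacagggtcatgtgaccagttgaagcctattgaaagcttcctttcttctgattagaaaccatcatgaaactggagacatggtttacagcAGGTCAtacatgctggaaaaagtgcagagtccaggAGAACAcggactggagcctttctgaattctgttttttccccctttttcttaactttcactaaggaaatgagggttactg

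RefSeq windows were found for 9 of the 10 genes, 14 windows in all, and 5 motifs were searched on both strands. AGGTCA was in 2 of the 14 windows, against 16.3% of 32817 windows of the same length over all genes, and AGAACA was in 4 of 14, against 19.0%. CACGTG was in 2 of 14, against 7.15%. The LRH-1 motif TCAAGGNCA and the HNF4A core CAAAGTCCA were in 0 of 14, against 1.62% and 0.475%. The motif TCAAGGNCA contains the letters AGGTCA where N is T. A match is only a match of letters, and no binding was measured.

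Of the 33 probe sets, 25 were at 4 or more (log2) on all 4 arrays, 1 on a single array and 7 on none. A value under 4 was taken as unmeasurable, and 4 was put in its place when arrays were compared. The 26 probe sets at 4 or more on at least 1 array stood for 9 of the 10 genes. Thrb had a single probe set, which was at 2.83 in the high-fat clodronate pool, 2.72 in the low-fat clodronate pool, 2.64 in the high-fat PBS pool and 2.66 in the low-fat PBS pool. All of these are below 4, so no difference in Thrb could be measured. The levels of different probe sets are not comparable, and the genes are not ranked by level.

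**Figure D1:**
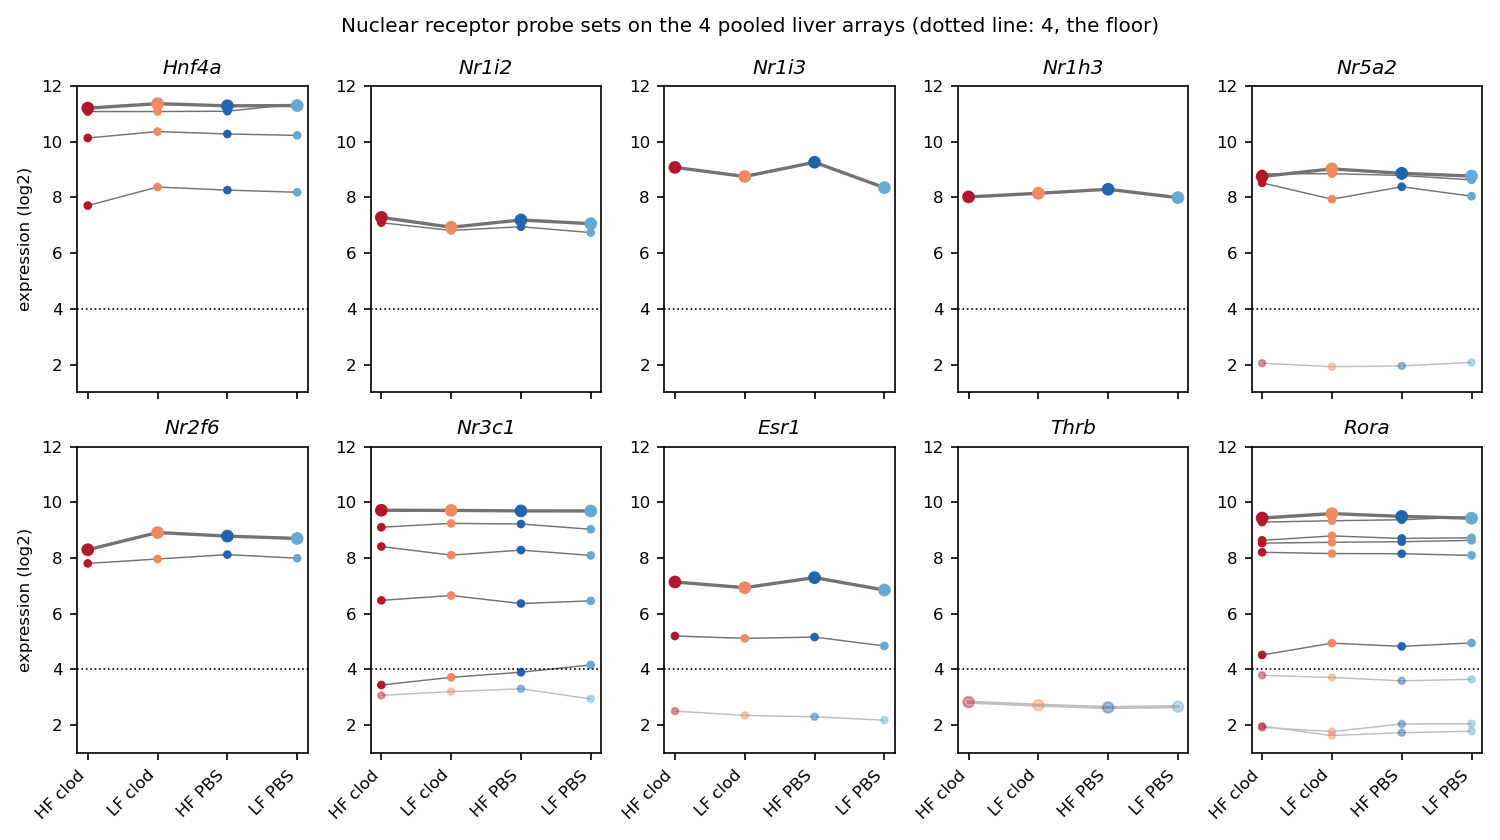
Expression (log2) of every probe set of the 10 genes on the 4 pooled arrays, in the order high-fat clodronate, low-fat clodronate, high-fat PBS and low-fat PBS. Thick lines with large points are the probe set with the highest mean per gene, faint lines are probe sets below 4 on all arrays, and the dotted line is at 4. The lines are nearly flat, and the widest range among probe sets at 4 or more on all arrays is that of Nr1i3 at 0.91.

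The receptors differed little between the arrays. Over the 25 probe sets at 4 or more on all arrays, the median range from the lowest to the highest array was 0.29 (log2), and it was 0.30 over all 14472 probe sets with such values. In clodronate-injected mice on the high-fat against the low-fat diet, 1 of the 26 member probe sets was 1.5-fold or more higher and 2 were lower, where 1.66% of all 16298 probe sets were higher and 5.71% lower. In PBS-injected mice, 1 was higher and 0 were lower, where 2.32% and 1.53% of all probe sets were. After clodronate, 0 of 26 were 1.5-fold or more higher and 0 lower on the high-fat diet, where 0.718% and 2.95% of all probe sets were. On the low-fat diet the counts were also 0 and 0, where 2.44% and 1.38% of all probe sets were. Past 2-fold, 0 of 26 were higher or lower in any of the 4 comparisons. On the high-fat against the low-fat diet, 0.38% of all probe sets were 2-fold or more higher and 0.853% lower with clodronate, and 0.362% and 0.27% with PBS. After clodronate, 0.11% were 2-fold or more higher and 0.657% lower on the high-fat diet, and 0.252% and 0.515% on the low-fat diet. No replicate stands behind any of these pairwise counts.

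The effect of diet averaged over both injections, and that of clodronate averaged over both diets, were tested with limma over the 16298 probe sets. With Benjamini-Hochberg adjustment at 0.05, 0 of the 26 member probe sets were called for diet, where 0.147% of all probe sets rose and 0.178% fell. At an unadjusted p under 0.05 there were 2 of 26, where 10.7% of all probe sets were. For clodronate 0 of 26 were called, where 0.0123% rose and 0.442% fell, and 0 of 26 were at an unadjusted p under 0.05, where 3.82% of all probe sets were. Without the mean-dependent prior of the variance, 0 were called for either effect, and 2 for diet and 1 for clodronate were at an unadjusted p under 0.05, where 9.23% and 4.6% of all probe sets were. In a fit with 1 probe set per gene 0 of the 9 detected genes were called, where 0.867% of 8650 genes rose and 0.821% fell with diet, and 0.116% rose and 0.971% fell with clodronate. The p-values measure the spread between these pooled arrays, which may be technical. The model leaves 1 residual degree of freedom, which also holds any difference of one effect across the levels of the other.

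**Figure D2:**
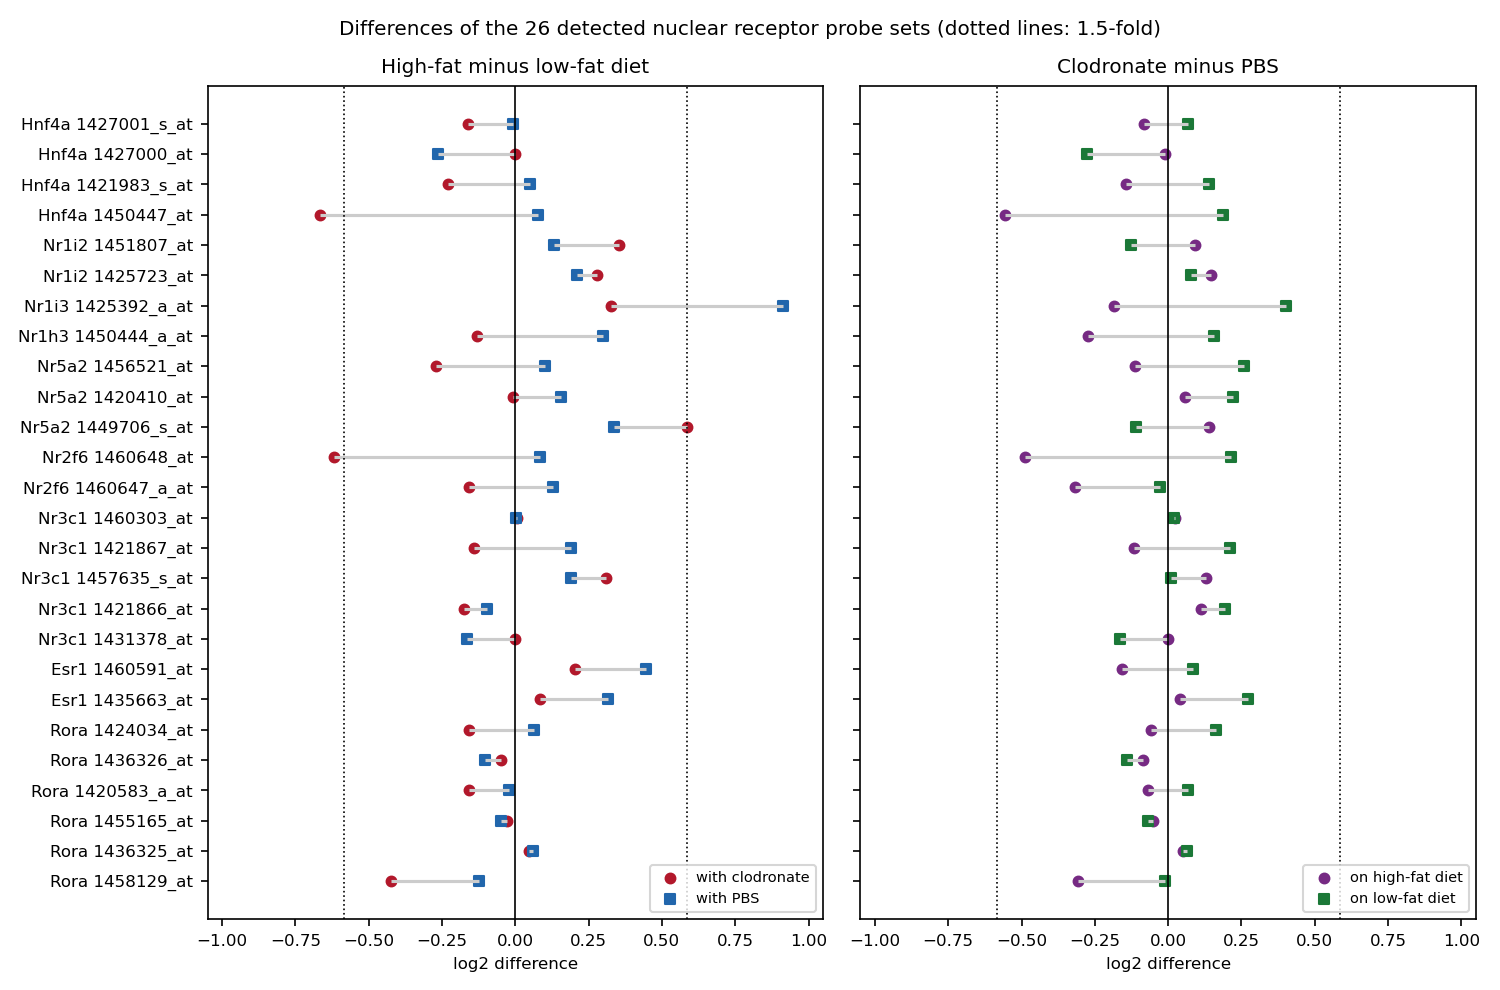
Log2 differences of the 26 detected member probe sets. The left panel gives high-fat minus low-fat diet with clodronate (circles) and with PBS (squares), and the right panel clodronate minus PBS on the high-fat diet (circles) and on the low-fat diet (squares). Dotted lines mark 1.5-fold, passed on the left by Nr1i3 at 0.91, 1 probe set of Nr5a2 at 0.58, and 1 probe set each of Hnf4a and Nr2f6 at -0.67 and -0.62, and on the right by none.

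Nr1i3, which encodes CAR, had the widest range of the members. Its probe set 1425392_a_at was at 9.08 in the high-fat clodronate pool, 8.75 in the low-fat clodronate pool, 9.26 in the high-fat PBS pool and 8.35 in the low-fat PBS pool. Both high-fat pools were above both low-fat pools. The high-fat diet went with a 1.25-fold higher level under clodronate, a log2 difference of 0.33, and a 1.88-fold higher one under PBS, a difference of 0.91. The averaged diet difference was 0.62 ± 0.41 (SD of the 2 differences) with a 95% interval of 0.25 to 0.99 before any adjustment, but it did not pass (limma, Benjamini-Hochberg adjusted p = 0.263). Over 8 other settings of the fit the adjusted p lay between 0.0574 and 0.818. The clodronate differences had opposite signs, -0.19 on the high-fat and 0.40 on the low-fat diet. Their average was 0.11, with a 95% interval of -0.27 to 0.48.

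Nr1i2, which encodes the drug-sensing receptor PXR, was also higher in both high-fat pools by both of its probe sets. Probe set 1451807_at was at 7.28 in the high-fat clodronate pool, 6.93 in the low-fat clodronate pool, 7.19 in the high-fat PBS pool and 7.06 in the low-fat PBS pool. With 1425723_at the values were 7.09, 6.81, 6.95 and 6.74 in the same order of pools. The averaged diet difference was 0.24 for each probe set, 1.18-fold, and neither passed (limma, Benjamini-Hochberg adjusted p = 0.593 and 0.591). The 95% interval was -0.10 to 0.58 for each, so a 1.5-fold rise lay at its upper end. For clodronate the probe sets averaged -0.02 and 0.11.

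Most genes listed here as targets of PXR and CAR lay above 0 on the high-fat against the low-fat diet. Of 14 detected genes of a list of 23, 10 were above 0 with clodronate and 13 with PBS, and the medians were 0.13 and 0.19, against medians of -0.08 and 0 over all 8650 genes. With clodronate 2 were 1.5-fold or more higher and 1 lower, where 1.69% and 4.79% of all genes were, and with PBS 4 were higher and 0 lower, where 2.15% and 1.47% were. Of these, Cyp2b9 and Cyp2b10 passed the filter only through high-fat pools, so they could only count as higher. Among the 12 genes at 4 or more on all arrays, an alternative chosen after seeing the data, 9 were above 0 with clodronate and 11 with PBS. Of the 12, 1 was 1.5-fold or more higher and 1 lower with clodronate, where 1.57% and 4.8% of 7945 such genes were, and 2 were higher and 0 lower with PBS, where 2.13% and 1.31% were. Cyp2b9, a cytochrome P450, was at 5.90 in the high-fat clodronate pool, 3.60 in the low-fat clodronate pool, 6.64 in the high-fat PBS pool and 3.54 in the low-fat PBS pool. Its diet differences are therefore bounds, of at least 3.72-fold with clodronate and at least 6.23-fold with PBS. Its call in limma, the single one of the list, used low-fat values too dim to measure and is not read as a test. With 1 probe set per gene in the fit, Abcc3 and Aldh1a1 were called as well (limma, Benjamini-Hochberg adjusted p = 0.00557 and 0.00858), where 0.867% of 8650 genes rose. Neither passed in the main fit (limma, Benjamini-Hochberg adjusted p = 0.0603 and 0.0828). Without the mean-dependent prior neither passed (limma, Benjamini-Hochberg adjusted p = 0.472 and 0.522). In the main fit 6 of the 14 were at an unadjusted p under 0.05 for diet and 1 for clodronate. Over all probe sets 10.7% and 3.82% were at such a p. Values of Cyp2b9 and Cyp2b10 too dim to measure entered that fit.

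The other members of that list had smaller differences or differences of both signs. Cyp2b10, the classical CAR target, passed 4 in a single pool, high-fat PBS, at 5.77, at least 3.42-fold higher than in the low-fat PBS pool. Abcc3, an export pump of the cell's blood side, differed by 0.64 with clodronate and 0.68 with PBS. Aldh1a1, an aldehyde dehydrogenase, differed by 0.37 and 0.38. Alas1, the first enzyme of haem synthesis, was at 11.01 in the high-fat clodronate pool, 11.34 in the low-fat clodronate pool, 11.44 in the high-fat PBS pool and 10.85 in the low-fat PBS pool. Like Nr1i3 it was highest in the high-fat PBS pool and lowest in the low-fat PBS pool, and its clodronate differences were -0.43 on the high-fat and 0.49 on the low-fat diet. Gstm3, a glutathione transferase, was lower on the high-fat diet, by -0.63 with clodronate and -0.31 with PBS. The main PXR target Cyp3a11 differed by 0.13 and 0.07. Of the clodronate differences in the list, 0 were 1.5-fold or more higher on either diet, and 2 were lower on the high-fat diet, those of Cyp2b9 and Cyp2b10, where 0.636% of all genes were higher and 2.98% lower. On the low-fat diet 0 were lower, where 1.75% of all genes were higher and 1.63% lower. Cyp2b10 passed the filter only through the high-fat PBS pool, so in the high-fat comparison it could only count as lower. Among the 12 genes at 4 or more on all arrays 0 were 1.5-fold or more lower there, where 2.73% of 7945 such genes were.

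**Figure D3:**
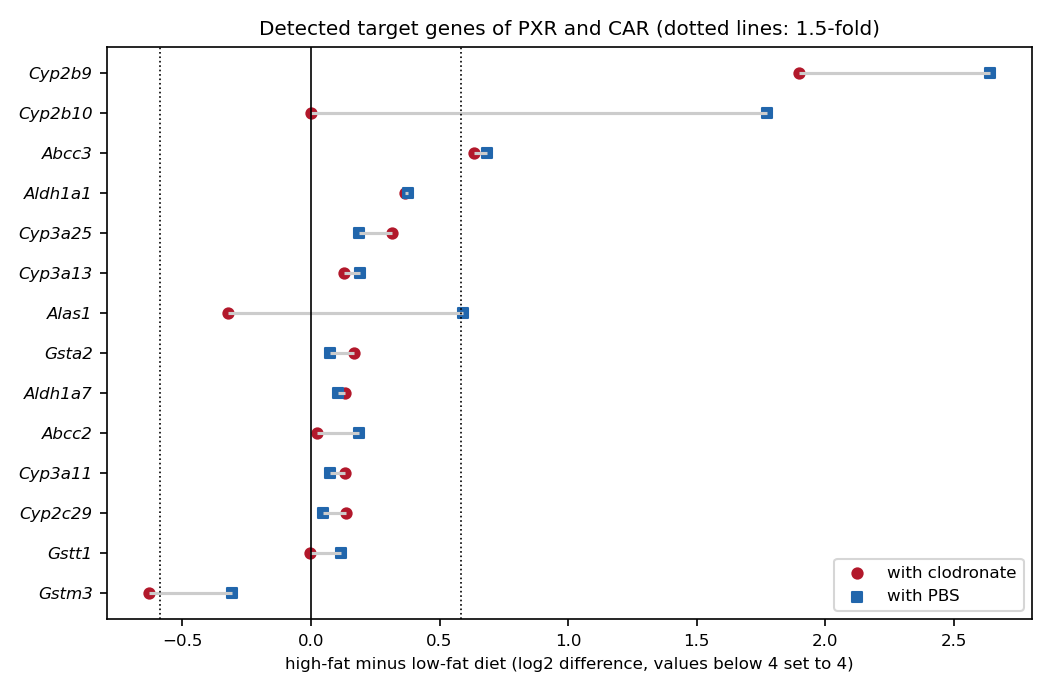
High-fat minus low-fat log2 differences of the 14 detected targets of PXR and CAR, with clodronate (circles) and with PBS (squares), after values below 4 were set to 4. Dotted lines mark 1.5-fold. Of the 14 genes, 10 lie right of 0 with clodronate and 13 with PBS.

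Hnf4a, the receptor that maintains hepatocyte identity, was close to level on its brighter probe sets. Probe set 1427001_s_at was at 11.21 in the high-fat clodronate pool, 11.37 in the low-fat clodronate pool, 11.29 in the high-fat PBS pool and 11.30 in the low-fat PBS pool. Its averaged differences were -0.08 for diet, with a 95% interval of -0.26 to 0.09, and -0.01 for clodronate, with an interval of -0.19 to 0.17. With 1427000_at the values were 11.08, 11.08, 11.09 and 11.36 in the same order of pools, and with 1421983_s_at 10.13, 10.36, 10.28 and 10.23. The dimmest of the 4 probe sets, 1450447_at, was at 7.71 in the high-fat clodronate pool, 8.37 in the low-fat clodronate pool, 8.26 in the high-fat PBS pool and 8.18 in the low-fat PBS pool. It was low only in the high-fat clodronate pool, 1.59-fold below the low-fat clodronate pool and 1.47-fold below the high-fat PBS pool. In clodronate-injected mice all 4 probe sets were lower on the high-fat diet, by -0.67 to -0.00, where the median of all 16298 probe sets was -0.09. After each array was centred on its median, which moves this comparison by over 0.1, the difference of 1450447_at was -0.54, short of 1.5-fold, and that of 1427000_at was 0.12, so the shared direction was lost. After quantile normalization 1427000_at was at 0.04.

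Target genes of HNF4A differed little as well. Of 15 listed genes 12 had a probe set, all detected. Of these 12, 0 were 1.5-fold or more higher or lower in any of the 4 comparisons between arrays. Among all genes the share ran from 0.636% to 4.79%, by comparison and direction. The medians of the 12 were -0.03 with diet under clodronate and 0.00 under PBS. After clodronate they were -0.02 on the high-fat and -0.03 on the low-fat diet. For diet and for clodronate 0 of 12 were called in limma, with 0 at an unadjusted p under 0.05 for each. Of all probe sets 0.147% rose and 0.178% fell with diet, and 0.0123% rose and 0.442% fell with clodronate. At an unadjusted p under 0.05 were 10.7% for diet and 3.82% for clodronate. The largest averaged diet differences were those of Otc, a urea cycle enzyme, at 0.16, Cps1, another urea cycle enzyme, at -0.13, and Cyp8b1, which makes cholic acid, at -0.11. For clodronate they were Apob, the protein of very-low-density lipoprotein, at -0.14, Otc at -0.09 and the clotting factor F9 at 0.07.

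The probe sets of Nr5a2, which encodes LRH-1, all had positive diet differences with PBS, 0.10 to 0.34, but did not share 1 direction with clodronate. Probe set 1456521_at was at 8.75 in the high-fat clodronate pool, 9.02 in the low-fat clodronate pool, 8.87 in the high-fat PBS pool and 8.77 in the low-fat PBS pool. With 1449706_s_at the values were 8.52, 7.94, 8.38 and 8.04 in the same order of pools. This second probe set was higher in both high-fat pools than in both low-fat pools, and the first was not. The averaged diet difference of 1449706_s_at was 0.46 ± 0.17 (SD of the 2 differences), 1.38-fold, with an unadjusted 95% interval of 0.18 to 0.75, and it did not pass (limma, Benjamini-Hochberg adjusted p = 0.275). With clodronate it differed by 0.58, which is just at 1.5-fold, and with PBS by 0.34. The averaged diet differences of 1456521_at and 1420410_at were -0.09 and 0.07. The annotation gave no transcript accession for 1449706_s_at, so which transcript it measures is not known here.

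Among 10 detected targets of LRH-1, 0 were called in limma for diet or clodronate. At an unadjusted p under 0.05 were 2 and 0, where 10.7% and 3.82% of all probe sets were. Cyp7a1, the rate-limiting enzyme of bile acid synthesis, was at 9.16 in the high-fat clodronate pool, 9.48 in the low-fat clodronate pool, 9.89 in the high-fat PBS pool and 8.85 in the low-fat PBS pool. It was 1.66-fold lower after clodronate on the high-fat diet and 1.55-fold higher on the low-fat diet, and the difference between the diets was not tested. Plk3, a kinase, was highest in the low-fat clodronate pool, 1.72-fold below it in the high-fat clodronate pool and 1.55-fold below it in the low-fat PBS pool. Abcg8, a sterol export pump, had an averaged diet difference of 0.29. The list medians lay between -0.03 and 0.05 in the 4 comparisons.

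Nr2f6 encodes an orphan receptor of the COUP-TF family that mostly represses genes. Probe set 1460648_at was at 8.30 in the high-fat clodronate pool, 8.92 in the low-fat clodronate pool, 8.79 in the high-fat PBS pool and 8.70 in the low-fat PBS pool. Like 1450447_at of Hnf4a, it was low only in the high-fat clodronate pool, 1.53-fold below the low-fat clodronate pool and 1.40-fold below the high-fat PBS pool. After centring, the first of these differences was -0.49, short of 1.5-fold. The other probe set, 1460647_a_at, was at 7.81, 7.97, 8.13 and 8.00 in the same order of pools, and was also lowest in the high-fat clodronate pool. Averaged over diets, the clodronate differences were -0.14 and -0.17, with 95% intervals of -0.56 to 0.29 and -0.48 to 0.13.

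Nr1h3 encodes LXRα, the oxysterol receptor of hepatocytes and macrophages. Its single probe set 1450444_a_at was at 8.02 in the high-fat clodronate pool, 8.15 in the low-fat clodronate pool, 8.29 in the high-fat PBS pool and 7.99 in the low-fat PBS pool. Clodronate differences had opposite signs, -0.27 on the high-fat and 0.16 on the low-fat diet, and averaged -0.06 with a 95% interval of -0.40 to 0.28. Marker genes of macrophages were far lower in the same pools. Of 12 Kupffer cell markers 10 were 1.5-fold or more lower on each diet, where 2.98% of all genes were on the high-fat and 1.63% on the low-fat diet. The summed linear level of the Kupffer cell list was 1416 and 1535 in the high-fat and low-fat clodronate pools. It was 7290 and 7786 in the high-fat and low-fat PBS pools. Of 10 detected pan-macrophage markers all 10 were lower, with sums of 612 and 597 against 3286 and 3554. Clec4f, Vsig4, Timd4, Marco, Folr2, Cd163 and C1qa, and the pan-macrophage markers Adgre1, Cd68 and C1qc, reached 4 only in PBS pools. These markers could therefore only count as lower. In bulk RNA, fewer cells of a type and less RNA per cell cannot be told apart. The lower end of the interval of Nr1h3, -0.40, leaves room for a fall short of 1.5-fold.

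After clodronate 0.442% of all probe sets fell, and among 15 detected LXR targets 1 did. This was Lpl, lipoprotein lipase, which macrophages also express (mean difference -1.79 ± 0.55; limma, Benjamini-Hochberg adjusted p = 0.0435). It was at 4.94 in the high-fat clodronate pool, 6.57 in the low-fat clodronate pool, 7.11 in the high-fat PBS pool and 7.96 in the low-fat PBS pool. Macrophage markers moved with it, and their part in the difference was not tested. Of all probe sets 0.178% fell with diet. The lipogenic targets Acaca and Fasn fell on the high-fat diet, by 1.07 ± 0.04 and 0.74 ± 0.04 (SD of the 2 differences; limma, Benjamini-Hochberg adjusted p = 0.0167 and 0.0175), as 2 of 15 called. Each of these 3 calls was lost without the mean-dependent prior, under which 0 of 15 were called for either effect. With 1 probe set per gene 5 fell with diet, Scd1, Fasn, Acaca, Pltp and Lpl, and 2 fell with clodronate, Pltp and Lpl. In that fit 0.821% of 8650 genes fell with diet and 0.971% with clodronate. In the main fit 7 of the 15 were at an unadjusted p under 0.05 for diet and 3 for clodronate. Over all probe sets 10.7% and 3.82% were at such a p. Abcg1, a cholesterol efflux pump, averaged -0.37 for clodronate without passing. The list medians were -0.11 and -0.04 with diet under clodronate and PBS, and -0.09 and -0.11 after clodronate on the high-fat and low-fat diet.

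Nr3c1, which encodes the glucocorticoid receptor, was the most even of the members on its brightest probe set. Probe set 1460303_at was at 9.72 in the high-fat clodronate pool, 9.71 in the low-fat clodronate pool, 9.69 in the high-fat PBS pool and 9.69 in the low-fat PBS pool. Its range over the arrays was 0.03, and its averaged diet difference was 0.00 with a 95% interval of -0.20 to 0.20. The other probe sets above 4 on all arrays ranged more widely, by 0.21 to 0.32. Of these 1457635_s_at was at 8.42, 8.11, 8.29 and 8.10 in the same order of pools, higher in both high-fat pools, with an averaged diet difference of 0.25 (limma, Benjamini-Hochberg adjusted p = 0.487). Probe set 1421867_at was at 9.11, 9.25, 9.22 and 9.03 and 1421866_at at 6.48, 6.66, 6.37 and 6.46 in that order, neither with both high-fat pools on 1 side of both low-fat pools. Probe set 1431378_at was above 4 only in the low-fat PBS pool, at 4.16.

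Targets of the glucocorticoid receptor did not share 1 pattern over the pools. Of 17 detected genes G6pc, the glucose-6-phosphatase that releases glucose from the liver, fell on the high-fat diet by 0.91 ± 0.03 (SD of the 2 differences; limma, Benjamini-Hochberg adjusted p = 0.0167), and 0 rose. That call too was lost without the mean-dependent prior (limma, Benjamini-Hochberg adjusted p = 0.415). With the prior, 0.178% of all probe sets fell and 0.147% rose with diet. Fkbp5, a chaperone of the receptor and a sensitive target, was at 6.17 in the high-fat clodronate pool, 6.20 in the low-fat clodronate pool, 6.29 in the high-fat PBS pool and 5.26 in the low-fat PBS pool. It was low only in the low-fat PBS pool, with a diet difference of -0.03 with clodronate and 1.03 with PBS. Tsc22d3, another direct target, was instead lowest in the low-fat clodronate pool, at 9.84, against 10.45, 10.35 and 10.30 in the high-fat clodronate, high-fat PBS and low-fat PBS pools. Lcn2 and Mt1, which also respond to inflammation, had the largest averaged clodronate differences of the list, 1.71 and 1.23. After clodronate on the high-fat diet 2 of 17 were 1.5-fold or more higher and 0 lower, where 0.636% and 2.98% of all genes were. On the low-fat diet 3 were higher and 0 lower, where 1.75% and 1.63% were. These were Lcn2 and Mt1 on both diets and Fkbp5, 1.92-fold, on the low-fat diet. For clodronate 0 of 17 were called, where 0.0123% of all probe sets rose and 0.442% fell. At an unadjusted p under 0.05 were 2 of the 17, where 3.82% of all probe sets were. For diet 5 of the 17 were at such a p, where 10.7% of all probe sets were. With 1 probe set per gene Mt1 was called for clodronate, and Dusp1, a phosphatase, fell with diet beside G6pc. Of 8650 genes in that fit, 0.116% rose with clodronate and 0.821% fell with diet. The list medians lay between -0.00 and 0.11.

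Esr1, which encodes ERα, was higher in both high-fat pools by both measurable probe sets. Probe set 1460591_at was at 7.14 in the high-fat clodronate pool, 6.94 in the low-fat clodronate pool, 7.30 in the high-fat PBS pool and 6.85 in the low-fat PBS pool. With 1435663_at the values were 5.20, 5.12, 5.16 and 4.85 in the same order of pools. The averaged diet differences were 0.33 and 0.20, or 1.25-fold and 1.15-fold, and neither passed (limma, Benjamini-Hochberg adjusted p = 0.493 and 0.759). Their 95% intervals were -0.02 to 0.67 and -0.27 to 0.67. Clodronate differences of 1460591_at were -0.16 on the high-fat and 0.08 on the low-fat diet. Of 5 detected genes of the ERα target list 0 were called, with 1 and 0 at an unadjusted p under 0.05 for diet and clodronate. Over all probe sets 10.7% and 3.82% were at such a p. Cyp17a1, a steroid-synthesis enzyme, had the largest averaged diet difference, -0.99, and was called with 1 probe set per gene. That fit had 0.821% of 8650 genes falling with diet. Ccnd1, cyclin D1, was highest in the high-fat PBS pool, 1.61-fold above low-fat PBS, and high-fat clodronate was 1.56-fold below it, 2 comparisons that share the high-fat PBS array.

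Although Thrb itself could not be measured, targets of the thyroid hormone receptor were. Of 10 detected genes 1 rose and 2 fell on the high-fat diet, where 0.147% and 0.178% of all probe sets did. Dio1, the deiodinase that activates and clears thyroid hormone, rose by 0.67 ± 0.01 (SD of the 2 differences; limma, Benjamini-Hochberg adjusted p = 0.0363). It was at 11.25 in the high-fat clodronate pool, 10.58 in the low-fat clodronate pool, 11.02 in the high-fat PBS pool and 10.35 in the low-fat PBS pool, so both high-fat pools were above both low-fat pools. Me1, malic enzyme, fell by 0.94 ± 0.14 (SD of the 2 differences; limma, Benjamini-Hochberg adjusted p = 0.0167), and Fasn, which is also in the LXR list, was the other. These calls were lost without the mean-dependent prior. Thra, which encodes the sister receptor TRα, was near the floor at 4.13 to 4.34. For clodronate 0 of 10 were called, with 2 at an unadjusted p under 0.05, where 3.82% of all probe sets were. For diet 7 of the 10 were at such a p, where 10.7% of all probe sets were.

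Rora, which encodes RORα, was represented by 9 probe sets, of which 6 were at 4 or more. Probe set 1424034_at was at 9.44 in the high-fat clodronate pool, 9.60 in the low-fat clodronate pool, 9.50 in the high-fat PBS pool and 9.43 in the low-fat PBS pool. With 1436326_at the values were 9.29, 9.34, 9.38 and 9.48 in the same order of pools, and with 1420583_a_at 8.64, 8.80, 8.71 and 8.73. With 1455165_at they were 8.54, 8.57, 8.59 and 8.64, and with 1436325_at 8.21, 8.16, 8.16 and 8.10. These lines were nearly level. The ranges of the 5 brighter probe sets were 0.10 to 0.19, and that of the dimmest, 1458129_at, 0.43, with values of 4.52, 4.95, 4.83 and 4.95. The averaged differences of 1424034_at were -0.05 for diet, with a 95% interval of -0.28 to 0.19, and 0.05 for clodronate, with an interval of -0.18 to 0.29. All 6 averaged diet differences lay between -0.27 and 0.05. Of 14 detected genes of the RORα target list 1 fell with diet, G6pc, which is also in the glucocorticoid list. Over all probe sets 0.178% fell with diet. Without the mean-dependent prior that call was lost. With 1 probe set per gene Elovl3 and Avpr1a fell beside G6pc, where 0.821% of 8650 genes fell. In the main fit 0 of 14 were called for clodronate, with 2 at an unadjusted p under 0.05, where 3.82% of all probe sets were. For diet 9 of the 14 were at such a p, where 10.7% of all probe sets were. On the high-fat diet 4 were 1.5-fold or more lower and 0 higher with clodronate, and 5 lower and 1 higher with PBS, where 4.79% and 1.69% of all genes were with clodronate and 1.47% and 2.15% with PBS. Fgf21 and Arntl passed the filter only through low-fat pools and could only count as lower. Among the 12 genes at 4 or more on all arrays 3 were lower and 0 higher with clodronate, where 4.8% and 1.57% of 7945 such genes were. With PBS 4 of the 12 were lower and 1 higher, where 1.31% and 2.13% were. On the log2 scale the lower ones with PBS were Cry1, a clock repressor, by 1.28, Fgf21, a fasting hormone, by at least 1.14, G6pc by 0.89, Avpr1a, a vasopressin receptor, by 0.69 and Elovl3, a fatty acid elongase, by 0.59. Nr1d1, a clock repressor and itself a nuclear receptor, was the higher one, by 0.86. E2f8, a cell cycle factor, had a clodronate difference of 1.14 on the low-fat diet. The list median was -0.25 with clodronate and -0.26 with PBS, against -0.08 and 0 over all genes.

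**Figure D4:**
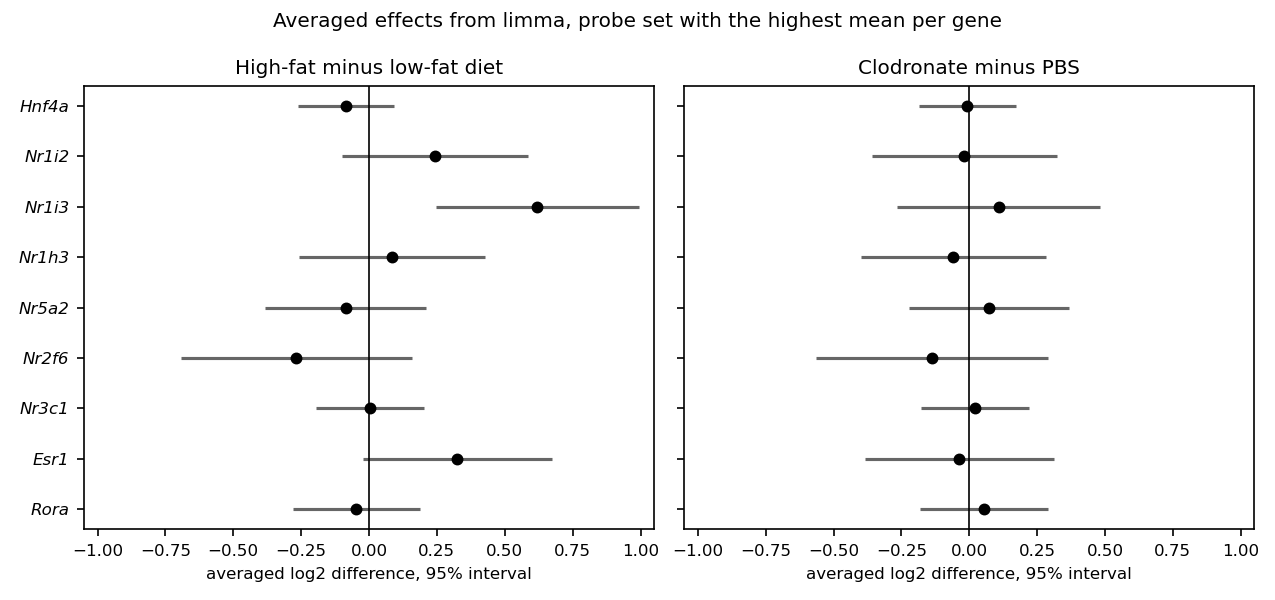
Averaged log2 differences from limma for the probe set with the highest mean of each of the 9 detected genes, high-fat minus low-fat diet on the left and clodronate minus PBS on the right. Points are estimates and lines are 95% intervals before adjustment. The diet interval of Nr1i3, 0.25 to 0.99, lies above 0, and all other intervals cross 0.

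Of 36 other nuclear receptor genes listed, 31 had a probe set and 15 were detected. In limma 0 of 15 were called for diet or for clodronate, with 5 and 0 at an unadjusted p under 0.05, where 10.7% and 3.82% of all probe sets were. Pparg, a receptor of fat storage, was at 6.09 in the high-fat clodronate pool, 5.49 in the low-fat clodronate pool, 5.78 in the high-fat PBS pool and 4.96 in the low-fat PBS pool. It was 1.5-fold or more higher on the high-fat diet with both injections, and Nr1d1 with PBS. Nr2c1, an orphan receptor near the floor, was 1.56-fold lower after clodronate on the high-fat diet and 1.52-fold lower on the high-fat diet with clodronate, 2 comparisons that share the high-fat clodronate array. Nr0b2, which encodes SHP, a receptor without a DNA-binding domain that represses LRH-1 and HNF4A, was at 9.70, 9.46, 9.54 and 9.48 in the high-fat clodronate, low-fat clodronate, high-fat PBS and low-fat PBS pools. Nr1h4, which encodes the bile acid receptor FXR, was at 9.88, 10.04, 10.04 and 9.78 in this order.

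Rxra, the main partner receptor in liver, was at 10.06 in the high-fat clodronate pool, 10.08 in the low-fat clodronate pool, 10.04 in the high-fat PBS pool and 9.91 in the low-fat PBS pool. Rxrb averaged -0.11 for diet, and neither of the 2 was called. Of 14 detected coregulators 0 were called for diet or clodronate in limma, with 5 and 0 at an unadjusted p under 0.05, where 10.7% and 3.82% of all probe sets were. Ppargc1b and Ppargc1a, coactivators of mitochondrial genes, had diet differences of opposite sign, of 1.09 and -0.62 with clodronate and of 0.69 and -0.92 with PBS. Prmt1, an arginine methyltransferase, differed by -0.46 with clodronate and -0.71 with PBS. The median of the coregulators was -0.26 with clodronate and -0.19 with PBS.

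The 9 hepatocyte markers with a probe set were detected on all arrays and had medians between -0.03 and 0.02 in the 4 comparisons, Alb being at 14.50 to 14.54. The member Hnf4a is itself among these 9, and Ttr, Apoa1, Tat and Cps1 are also in the target lists above. Of 10 sinusoidal endothelial and 7 stellate markers 0 were called in limma for either effect. At an unadjusted p under 0.05 for diet and clodronate were 0 and 0 endothelial and 1 and 0 stellate markers. Over all probe sets 10.7% and 3.82% were at such a p. Of 6 lymphocyte markers with a probe set 0 were detected. The median of the 16298 probe sets was 6.83 and 6.95 on the high-fat and low-fat clodronate arrays and 6.89 on each PBS array. This offset lies in the comparison of diets after clodronate, where 22.5% of the probe sets past 1.5-fold were higher, against 46.2% after centring of each array and 48.4% after quantile normalization. For clodronate on the high-fat diet the share was 19.6%, against 33.4% and 39.7%, and on the low-fat diet 63.9%, against 50.9% and 49.9%.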

How the data were processed

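Per the submitters' processing notes, the authors used GCRMA 2.24.1 for the 4 arrays, 1 per pool, and deposited log2 values for 45101 probe sets. The method corrects background from the probe sequence, equalises the distributions of the arrays and summarises probes into probe sets. No scanner files were used here, and precision is limited by there being 1 array for each pool. The chip annotation behind the values is not given in the sources used here.

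Probe sets were named from the platform annotation supplied with the table. Of the probe sets, 34958 had 1 gene symbol, 932 several and 9211 none, and only those with 1 symbol were named. The 10 members were found in the RefSeq gene table of GRCm38.p6 by Entrez identifier under the same symbols. Probe sets at 4 or more (log2) on at least 1 array were analysed, 16298 in all. For gene lists, each of 8650 genes was represented by its probe set with the highest mean.

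Differences between 2 arrays were taken after values below 4 were set to 4, and counted at 1.5-fold. Averaged effects of diet and of clodronate were tested by limma (3.58.1, under R 4.3.3), with 1 additive model of the values as deposited, eBayes with a mean-dependent prior (prior degrees of freedom 4.90) and Benjamini-Hochberg adjustment over all 16298 probe sets. The SD beside an averaged difference is that of its 2 single differences (n = 2). The fit was tested on simulated data with variances drawn from its fitted prior. Only clodronate changes were planted, the same on both diets, so calls for diet changes were not tested in this way. The fit recovered nearly all large changes and few small ones. In most simulated tables a larger share of its calls was false than the adjustment allows. Calls of list genes are to be read with that in mind. Alternatives changed the floor, the scaling, the fold, the filter, the prior and the unit of the fit. Differences, lists and counts were computed with pandas 2.3.3 under Python 3.11.15.

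The members, the 11 gene lists and the 7 marker lists were chosen with earlier results of these data known. Of the 116 detected genes of the gene lists, 11 are in several of them. The marker lists were not part of that count, and some hepatocyte markers are in the gene lists as well. All members are given with every detected probe set. From each list, up to 3 genes with the largest averaged differences, called genes and genes past 1.5-fold were candidates to be named, and a selection of them is given.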

Additional observations from a re-analysis of the deposited data

Results flagged for a closer look

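Several member probe sets had clodronate differences of opposite sign on the 2 diets, and each such difference between single arrays was itself not tested. The clodronate difference on the high-fat diet minus that on the low-fat diet was -0.74 (log2) for 1450447_at and -0.28 for 1421983_s_at of Hnf4a, and -0.70 for 1460648_at of Nr2f6. It was -0.59 for Nr1i3, -0.43 for Nr1h3 and -0.33 for 1421867_at of Nr3c1. In each of these the level was lower after clodronate on the high-fat diet and higher after it on the low-fat diet, each by more than the fitted standard error of an averaged effect. By smaller steps, 1456521_at of Nr5a2 (-0.11 and 0.26), 1460591_at of Esr1 (-0.16 and 0.08) and 1427001_s_at of Hnf4a (-0.08 and 0.07) went the same way. So did 1424034_at (-0.06 and 0.17) and 1420583_a_at (-0.07 and 0.07) of Rora. Probe sets 1449706_s_at of Nr5a2 (0.14 and -0.11) and 1451807_at of Nr1i2 (0.09 and -0.13) went the opposite way. Part of this is shared by all probe sets, whose median clodronate difference was -0.04 on the high-fat and 0.05 on the low-fat diet. The diet difference with clodronate minus that with PBS was -0.29 for 1460647_a_at of Nr2f6 and -0.33 for 1421867_at of Nr3c1, where the high-fat pool was the lower one with clodronate and the higher one with PBS. The values of each probe set rest on the same 4 arrays, so both ways of taking the difference give 1 number.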

How the results depend on the processing

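No member probe set or gene was called for diet or clodronate in any of the 9 settings of the fit. No paired analysis was possible because each group is 1 pooled array, and for the same reason no replicate could be left out. The 2 member probe sets lower on the high-fat diet after clodronate (Hnf4a and Nr2f6) were 0 after centring of each array, 0 after quantile normalization and 0 at 2-fold, and the 1 higher in that comparison and the 1 higher with PBS were each 0 at 2-fold. Over all probe sets or genes, the 2 that rose with clodronate were 0 without the filter on dim probe sets, 5 centred, 8 quantile-normalized, 10 with 1 probe set per gene, 6 with the mean of a gene's probe sets and 0 without the mean-dependent prior. The 72 that fell with clodronate were 23 without the filter, 22 with a filter on all arrays, 44 with values below 4 set to 4 and 11 without that prior. The 24 that rose with diet were 0 without the filter, 130 centred, 120 quantile-normalized and 8 with the floor of 4. They were 75 with 1 probe set per gene, 51 with gene means and 0 without the mean-dependent prior. The 29 that fell were 0, 71, 86, 14, 71, 50 and 0 in the same settings. The setting without the mean-dependent prior still used a prior, the same at every mean (prior degrees of freedom 2.71). At an unadjusted p under 0.05, limma gave 749 probe sets for clodronate and 1504 for diet in that setting. The averaged clodronate difference of Hnf4a turned to 0.0027 after quantile normalization, and the diet difference of Rora to 0.015 after centring. With the mean of a gene's probe sets, the clodronate difference was 0.047 for Nr1i2, -0.032 for Nr3c1, 0.059 for Esr1 and -0.036 for Rora, and the diet difference 0.15 for Nr5a2 and -0.025 for Nr3c1, each of the opposite sign. The cause of these changes was not tested. With 1 array a group, signal near the floor of 4 limits Thrb and the dim probe sets most.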

Other observations

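The genes whose levels followed Nr1i3 most closely over the 4 arrays, among 7944 genes at 4 or more on all arrays and after each profile was centred on its mean, were Fahd2a, Zap70 and Thoc5. Their root mean square distances from Nr1i3 were 0.052, 0.056 and 0.063 (log2). Fahd2a was at 7.21 in the high-fat clodronate pool, 6.79 in the low-fat clodronate pool, 7.44 in the high-fat PBS pool and 6.49 in the low-fat PBS pool. All 3 were highest in the high-fat PBS pool and lowest in the low-fat PBS pool, as Nr1i3 was. With 4 arrays and this many genes, close profiles are to be found for almost any gene, and nothing about shared function or control follows.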
